A study of Mus musculus with 6 samples.

Results

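The core genes of transforming growth factor beta (TGF-beta) signalling were examined in LLC cells, the Lewis lung carcinoma line derived from a lung tumour of a mouse. The set held 10 genes, taken by gene symbol out of 18182 genes in the gene tables: the ligands Tgfb1, Tgfb2 and Tgfb3, the receptors Tgfbr1, Tgfbr2 and Tgfbr3, the signal transducers Smad2, Smad3 and Smad4, and the inhibitor Smad7. Wild-type C57BL/6 mice had received LLC cells carrying red fluorescent protein under the skin, either by themselves (LLC alone, 3 libraries) or mixed with bone marrow-derived mesenchymal stem cells (LLC with BMSCs, 3 libraries). The cells with red fluorescence were then sorted by flow cytometry from the primary tumours and their RNA was sequenced. The LLC cells and the sort were common to both groups, and the groups differed in the BMSCs injected. The BMSCs were purchased cells from C57BL/6 mice, and a tumour grown from injected cells is limited as a model of a cancer that arises in the lung. Nothing in the labels says that the libraries came from separate mice, so that the p-values measure the spread between these libraries, which may be technical.

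TGF-beta ligands are made as latent dimers that integrins and proteases release outside the cell. The active ligand is bound by the type II receptor Tgfbr2, helped in the case of TGF-beta2 by the co-receptor Tgfbr3 (betaglycan), and the type I receptor Tgfbr1 then phosphorylates Smad2 and Smad3, which enter the nucleus with Smad4. Smad7 is itself induced by the signal and blocks Tgfbr1. In carcinoma cells the pathway is known both for growth arrest and for epithelial-mesenchymal transition.

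The gene models behind the receptors and ligands are shown first. Tgfbr1 and Tgfbr2 each had 2 abundant RefSeq transcripts that differed by a short in-frame stretch of the coding sequence. In Tgfbr1 the stretch had 12 bases, or 4 codons, in exon 3 of 9 (chr4:47393247-47393258, plus strand, GRCm38), and was present in NM_009370 and absent from NM_001312868. In Tgfbr2 the stretch had 75 bases, or 25 codons, in exon 2 of 8 (chr9:116158271-116158345, minus strand, GRCm38), and was present in NM_009371 and absent from NM_029575. Capitals mark the stretch and lower case the 15 coding bases on each side.
Tgfbr1: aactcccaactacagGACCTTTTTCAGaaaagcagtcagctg
Tgfbr2: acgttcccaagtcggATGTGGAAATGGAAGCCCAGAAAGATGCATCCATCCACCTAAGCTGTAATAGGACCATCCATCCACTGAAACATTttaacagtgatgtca

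The promoters of Tgfb1, Tgfb2 and Tgfbr2 are shown because the ligands moved in opposite directions and Tgfbr2 was among the receptors that rose. Each is the 250 bases before the start site in the RefSeq promoter table of GRCm38.p6, from which 5 of the 10 genes were used. Tgfb1 lies at chr7:25686752-25687001 (plus strand), Tgfb2 at chr1:186705990-186706239 (minus strand) and Tgfbr2 at chr9:116175364-116175613 (minus strand). Capitals mark matches, on either strand, to the GC box GGGCGG, the TATA box TATAAA and the SMAD motif CAGAC.
Tgfb1: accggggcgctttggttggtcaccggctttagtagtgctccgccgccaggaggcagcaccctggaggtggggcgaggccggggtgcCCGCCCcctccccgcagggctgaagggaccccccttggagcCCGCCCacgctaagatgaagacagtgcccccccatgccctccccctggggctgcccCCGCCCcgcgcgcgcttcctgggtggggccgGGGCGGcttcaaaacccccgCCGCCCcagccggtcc
Tgfb2: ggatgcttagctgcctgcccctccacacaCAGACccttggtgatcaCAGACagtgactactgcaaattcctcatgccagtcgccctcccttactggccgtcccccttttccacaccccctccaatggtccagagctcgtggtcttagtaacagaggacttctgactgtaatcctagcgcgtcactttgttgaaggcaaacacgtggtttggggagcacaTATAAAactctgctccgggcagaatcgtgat
Tgfbr2: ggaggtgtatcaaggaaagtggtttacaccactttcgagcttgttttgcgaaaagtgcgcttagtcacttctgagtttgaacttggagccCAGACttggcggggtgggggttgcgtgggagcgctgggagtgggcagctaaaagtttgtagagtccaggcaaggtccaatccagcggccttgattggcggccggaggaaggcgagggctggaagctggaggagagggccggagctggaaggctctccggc

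The Tgfb1 promoter was 75.2% G and C and held 5 GC boxes and no match to the other motifs. The Tgfb2 promoter was 53.6% G and C and held 1 TATA box and 2 SMAD motifs. The Tgfbr2 promoter was 58.4% G and C and held 1 SMAD motif. These short motifs are common: of 32851 mouse promoters of this length, 32.7% held the GC box, 12.4% the TATA box and 42.2% the SMAD motif. The AP-1 motif TGANTCA (6.75% of promoters) and the STAT motif TTCNNNGAA (7.02%) had no match in the 3 windows. A match is a run of letters and no evidence that a factor binds there.

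The estimated counts summed to between 33476347 and 46189113 in a library, and all 10 genes passed the filter on low counts. The comparison asked how BMSCs in the injection change the transcripts of the LLC cells. In edgeR's quasi-likelihood test with an adjusted p under 0.05, 5 of the 10 genes were higher in LLC with BMSCs (Tgfb1, Tgfbr2, Tgfbr3, Smad2 and Smad4) and 3 were lower (Tgfb2, Tgfb3 and Smad7), while Tgfbr1 and Smad3 did not pass. Of the 13353 genes tested, 62.9% passed, 31.5% higher and 31.3% lower, so that 8 of 10 is to be read against a background in which most genes passed. The normalized counts of the groups did not overlap for 8 of the 10 genes, against 71.3% of all tested genes. No member reached an absolute log2 fold change of 1, while 15.8% of the tested genes did so with an edgeR adjusted p under 0.05. The median log2 fold change was 0.12 over the 10 genes and 0.01 over all genes tested.

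LLC alone replicate 3 stood apart by gene length. Relative to the mean library, its genes in the shortest quintile of length had a median log2 deviation of 0.31 and those in the longest quintile of -0.36, against -0.19 to 0.18 in the other libraries. The 3 libraries of LLC with BMSCs leaned the opposite way, with 0.10 to 0.18 in the longest quintile. The members range from 2191 bases (Tgfb1) to 8727 bases (Smad2). The fold changes of the 10 genes are therefore also given after this trend over length was removed.

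Marker genes of other cells were followed because the sorted cells could hold some of them. Of the labelled cells' epithelial markers, Krt8 was at 158 to 195 CPM, while Epcam and Cdh1 were at or below 0.11 CPM in every library. Summed, these markers were at 158 to 179 CPM in LLC alone and at 188 to 196 CPM in LLC with BMSCs, and 2 of 2 tested were higher. Krt18 went from 0.0436 to 0.175 CPM up to 0.831 to 0.919 CPM. Summed BMSC and stromal markers were at 407 to 476 CPM in LLC alone and at 928 to 953 CPM in LLC with BMSCs, and 11 of 11 tested were higher. In that list Prrx1 and Col3a1 were already abundant in LLC alone. The surface markers on it differed in level: Ly6a went from 2.19 to 4.25 CPM up to 21.3 to 24.4 CPM, Nt5e from 3.44 to 3.82 CPM up to 13.8 to 14.2 CPM, Pdgfra from 31.8 to 42.6 CPM up to 51.2 to 54.8 CPM and Pdgfrb from 29.8 to 39.2 CPM up to 45.7 to 50.7 CPM, while Thy1 and Fap were at 0 in LLC alone and at no more than 0.0449 and 0.0225 CPM with BMSCs. Neutrophil markers went from 0.436 to 0.75 CPM up to 21.8 to 25.1 CPM (6 of 6 tested higher). Ly6g on that list was too low to be tested, at 0.0219 to 0.09 CPM in LLC alone and 0.0225 to 0.0672 CPM with BMSCs. Macrophage markers went from 24.1 to 29.1 CPM up to 35.9 to 38.4 CPM (6 of 8 tested higher and 1 lower). Among them Adgre1 was at 0 in LLC alone and at 1.34 to 1.78 CPM with BMSCs. Cd68 went down from 6.16 to 7.39 CPM to 3.17 to 4.06 CPM. Cd14 overlapped between the groups, at 14.4 to 17.3 and 14.9 to 17.6 CPM. C1qa, C1qb and C1qc were at no more than 0.0678 CPM in every library. Platelet markers were at 5.85 to 6.21 and 7.32 to 7.73 CPM (3 of 4 tested higher and 1 lower). Endothelial and lymphocyte markers were at no more than 1.21 CPM in sum in every library. Only 1 of 6 endothelial and 1 of 7 lymphocyte markers had enough counts to be tested, and neither passed, so that a change in the others was not tested. The part of such cells in the results on the 10 genes was not tested, and in RNA from many cells fewer cells of a type and less RNA per cell cannot be told apart.

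**Figure D1:**
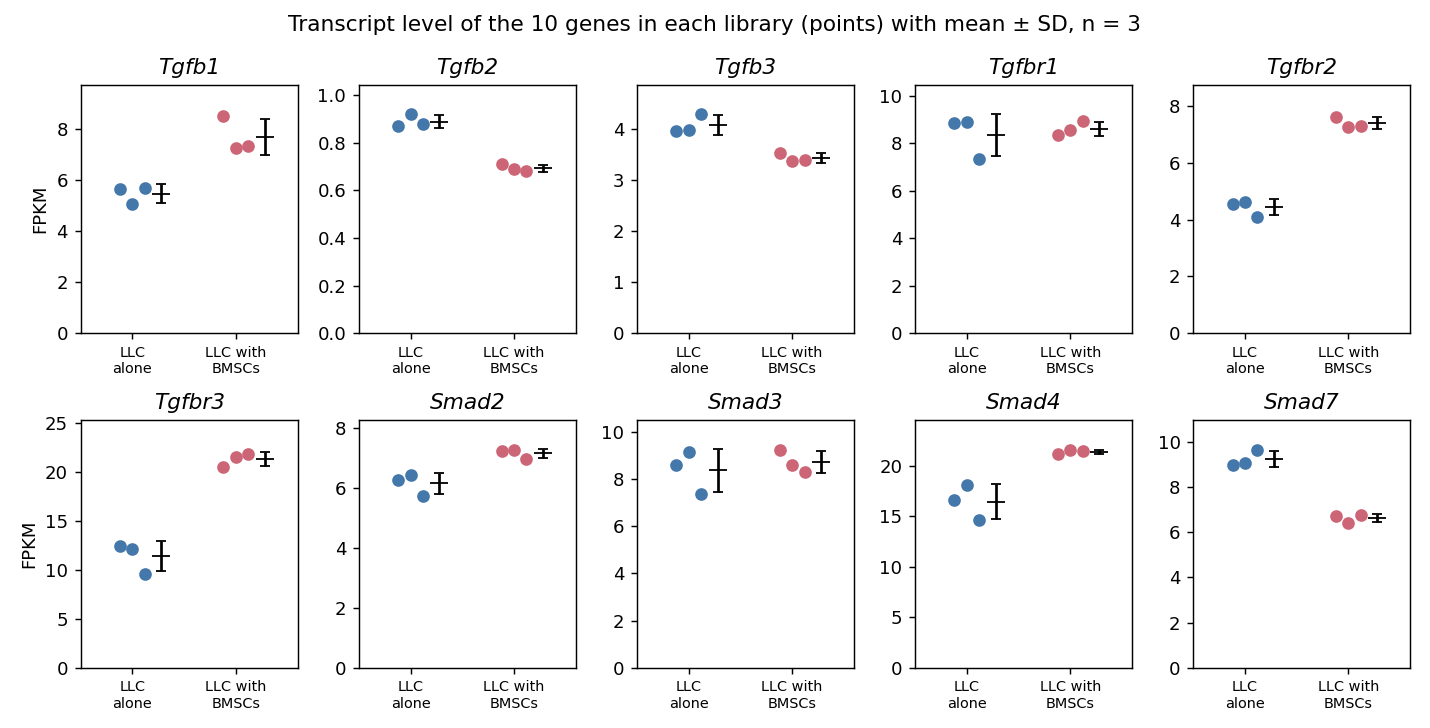
FPKM (linear axes from 0, one scale per gene) of the 10 genes in each library, as points, with the mean ± SD of 3 libraries beside them for LLC alone (blue) and LLC with BMSCs (red). The groups overlap for Tgfbr1 and Smad3 and are apart for the other 8 genes.

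Levels are given as FPKM, which divides by transcript length and library total, so that genes can be compared with each other. Of the ligands, Tgfb1 rose and the other ligands fell. Tgfb1, the isoform most widely expressed in tumours and immune cells, had 5.65, 5.04 and 5.69 FPKM in LLC alone and 8.51, 7.27 and 7.32 FPKM in LLC with BMSCs. Every library with BMSCs was above every library without, and BMSC replicate 1 was the highest. The mean went from 5.46 ± 0.364 to 7.70 ± 0.702 FPKM (SD over 3 libraries). This gave a log2 fold change of 0.47 (SE 0.094, 95% interval 0.26 to 0.69, edgeR adjusted p = 0.00302), and it was 0.47 as well with the length trend removed.

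Tgfb2, the isoform that depends most on the co-receptor for binding, was the least abundant member, with 0.87, 0.92 and 0.88 FPKM in LLC alone and 0.71, 0.69 and 0.68 FPKM in LLC with BMSCs. The 3 libraries within each group lay close together and the groups did not overlap. After normalization this came to 195 ± 4.45 counts against 149 ± 3.82 (SD over 3 libraries). On the log2 scale the difference was -0.39 (SE 0.089, 95% interval -0.59 to -0.18, edgeR adjusted p = 0.0061). The call was lost where the libraries nearest each other within a group were summed (edgeR adjusted p = 0.0536), and with the length trend removed the value was -0.63 (edgeR adjusted p = 4.16e-04).

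Tgfb3, the third ligand, had 3.95, 3.97 and 4.29 FPKM in LLC alone and 3.53, 3.37 and 3.38 FPKM in LLC with BMSCs. Its groups also stayed apart, by a smaller distance than those of Tgfb1. Its log2 fold change was -0.27 (SE 0.072, 95% interval -0.44 to -0.10, edgeR adjusted p = 0.0127). This call was lost without BMSC replicate 2 (adjusted p = 0.0546) or without BMSC replicate 3 (adjusted p = 0.0534), at log2 fold changes of -0.25 and -0.26 in edgeR. With the length trend removed it was -0.40 (edgeR adjusted p = 8.88e-04). Exons of Tgfb2 and Tgfb3 overlap antisense or unclassified transcripts on the opposite strand by 124 to 257 bases in GENCODE M21, and since no strand setting is stated, reads from these stretches cannot be assigned to either strand.

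The ligands together had 10.5, 9.93 and 10.9 FPKM in LLC alone and 12.7, 11.3 and 11.4 FPKM in LLC with BMSCs. Tgfb1 made up 54.0%, 50.8% and 52.4% of this sum in LLC alone and 66.7%, 64.2% and 64.3% in LLC with BMSCs. Its share was thus larger in each library with BMSCs, by 12.7 percentage points in the mean (52.4 ± 1.6 to 65.1 ± 1.45, SD, n = 3). The share of Tgfb3 was 39.1 ± 1.19% and 29.0 ± 1.18%, and that of Tgfb2 was 8.56 ± 0.62% and 5.88 ± 0.274% (SD, n = 3). For each of the 3 ligands the groups did not overlap, and the exact permutation test gave a two-sided p of 0.1 (0.1 after Benjamini-Hochberg adjustment over the 3), which is the smallest that 3 libraries against 3 allow. These shares do not depend on the scaling between libraries.

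**Figure D2:**
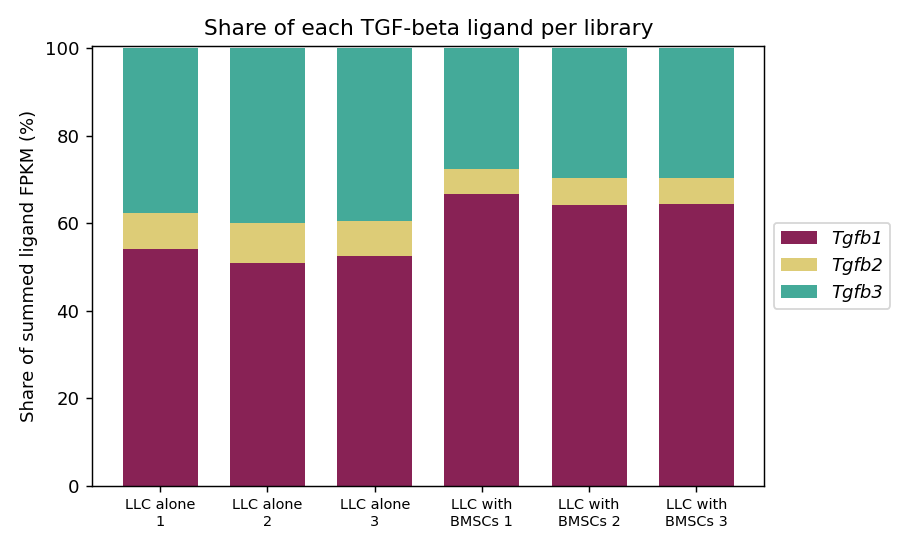
Share in percent of Tgfb1, Tgfb2 and Tgfb3 in their summed FPKM, one stacked bar from 0 to 100 per library. Tgfb1 takes 50.8% to 54.0% in LLC alone and 64.2% to 66.7% in LLC with BMSCs.

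Of the receptors, Tgfbr2 and Tgfbr3 rose and Tgfbr1 did not pass the test. Tgfbr1, the type I receptor kinase, had 8.85, 8.87 and 7.33 FPKM in LLC alone and 8.35, 8.53 and 8.92 FPKM in LLC with BMSCs. The groups overlapped, with LLC alone replicate 3 below all others. For Tgfbr1 the log2 fold change was 0.03 (SE 0.083, 95% interval -0.17 to 0.22, edgeR adjusted p = 0.808). With the length trend removed it turned to -0.23 with an edgeR adjusted p of 0.00176, so that no direction is given for Tgfbr1.

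Tgfbr2, the type II receptor that binds the ligand first, had 4.56, 4.64 and 4.11 FPKM in LLC alone and 7.64, 7.28 and 7.31 FPKM in LLC with BMSCs. The gap between the groups was several times the spread within either. The mean went from 4.44 ± 0.286 to 7.41 ± 0.2 FPKM (SD over 3 libraries). Its log2 fold change was 0.72 (SE 0.065, 95% interval 0.57 to 0.87, edgeR adjusted p = 5.68e-05) and 0.50 with the length trend removed.

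Tgfbr3, the co-receptor that presents ligand to Tgfbr2 and can be shed from the cell surface, had the largest fold change of the 10 genes in this fit. It had 12.38, 12.11 and 9.60 FPKM in LLC alone and 20.50, 21.51 and 21.83 FPKM in LLC with BMSCs. LLC alone replicate 3 was again the lowest, and all libraries with BMSCs were well above all libraries without. The mean went from 11.4 ± 1.53 to 21.3 ± 0.694 FPKM (SD over 3 libraries). Its log2 fold change was 0.89 (SE 0.097, 95% interval 0.66 to 1.11, edgeR adjusted p = 1.56e-04). In that fit 81.0% of the genes tested had a smaller absolute change. The value was 0.78 without LLC alone replicate 3 and 0.62 with the length trend removed. In the latter setting the values of Smad7 (-0.70) and Tgfb2 (-0.63) were larger in size. Exons of Tgfbr3 overlap an unclassified transcript of the same strand by 297 bases in GENCODE M21.

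The receptors thus changed relative to each other. Tgfbr2 stood at 0.515, 0.523 and 0.561 times the FPKM of Tgfbr1 in LLC alone and at 0.915, 0.853 and 0.82 times in LLC with BMSCs. Tgfbr3 stood at 1.36 ± 0.045 and 2.47 ± 0.0409 times the FPKM of Tgfbr1 (SD, n = 3). Neither ratio overlapped between the groups, and the exact permutation test gave the smallest two-sided p it allows, 0.1, for each.

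The transcripts of the receptors are given as a description, since the division of reads among transcripts is an estimate. The Tgfbr2 transcript with the stretch of 25 codons, NM_009371, made up 49.1%, 63.1% and 58.2% of Tgfbr2 FPKM in LLC alone and 62.4%, 63.7% and 47.7% in LLC with BMSCs. These shares overlapped, and both forms of Tgfbr2 were higher with BMSCs, the form with the stretch at 2.52 ± 0.357 and 4.30 ± 0.71 FPKM and the form without it at 1.92 ± 0.349 and 3.11 ± 0.624 FPKM (SD, n = 3). The Tgfbr1 transcript with the stretch of 4 codons, NM_009370, made up 42.8%, 39.3% and 26.2% in LLC alone and 39.1%, 46.7% and 51.1% in LLC with BMSCs. The form without it, NM_001312868, made up 53.8%, 49.4% and 54.2% and then 51.8%, 46.7% and 45.2%. A further Tgfbr1 transcript, NM_001312869, made up 3.39%, 11.3% and 19.6% and then 9.09%, 6.68% and 3.7%. The shares of all Tgfbr1 forms overlapped between the groups. Smad2 was mostly NM_010754 (89.7% to 95.1% in every library), and apart from a second Tgfb2 transcript at 12.5% in LLC alone replicate 3 the other members had 1 transcript each.

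Of the SMADs that carry the signal, Smad4 and Smad2 were higher and Smad3 did not pass the test. Smad2, a receptor-activated SMAD, had 6.26, 6.44 and 5.74 FPKM in LLC alone and 7.23, 7.25 and 6.96 FPKM in LLC with BMSCs. The groups did not overlap, although the gap was small. For Smad2 the log2 fold change was 0.20 (SE 0.062, 95% interval 0.05 to 0.34, edgeR adjusted p = 0.0256). Smad2 has the longest transcript of the 10 genes, and with the length trend removed its log2 fold change turned to -0.16 with an edgeR adjusted p of 0.122. Its call was also lost without LLC alone replicate 1 (edgeR adjusted p = 0.0614) and without BMSC replicate 1, 2 or 3 (edgeR adjusted p = 0.0664, 0.085 and 0.0511).

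Smad3, the receptor-activated SMAD that binds DNA directly, had 8.60, 9.17 and 7.37 FPKM in LLC alone and 9.22, 8.61 and 8.32 FPKM in LLC with BMSCs. The libraries of the groups were interleaved, and LLC alone replicate 3 was the lowest. The log2 fold change was 0.04 (SE 0.088, 95% interval -0.17 to 0.24, edgeR adjusted p = 0.725), and with the length trend removed it turned to -0.19 with an edgeR adjusted p of 0.00542.

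Smad4, the partner shared by the TGF-beta and BMP branches, was the most abundant member in LLC alone, with 16.63, 18.10 and 14.58 FPKM, and had 21.14, 21.51 and 21.44 FPKM in LLC with BMSCs. The libraries with BMSCs were nearly level with one another and above all libraries without. The log2 fold change was 0.36 (SE 0.081, 95% interval 0.17 to 0.55, edgeR adjusted p = 0.00555), and 0.23 with the length trend removed.

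Smad7, the inhibitor that brings ubiquitin ligases to Tgfbr1, had 9.0, 9.07 and 9.65 FPKM in LLC alone and 6.71, 6.42 and 6.78 FPKM in LLC with BMSCs. Every library with BMSCs was below every library without. After normalization this came to 1753 ± 75.5 counts against 1241 ± 38.5 (SD over 3 libraries). On the log2 scale Smad7 changed by -0.50 (SE 0.058, 95% interval -0.63 to -0.36, edgeR adjusted p = 2.05e-04), and by -0.70 with the length trend removed. Set against the sum of Smad2 and Smad3, Smad7 stood at 0.606, 0.581 and 0.736 times their FPKM in LLC alone and at 0.408, 0.405 and 0.444 times with BMSCs, and the groups were apart (p = 0.1 in the exact permutation test, two-sided and at its lowest limit).

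**Figure D3:**
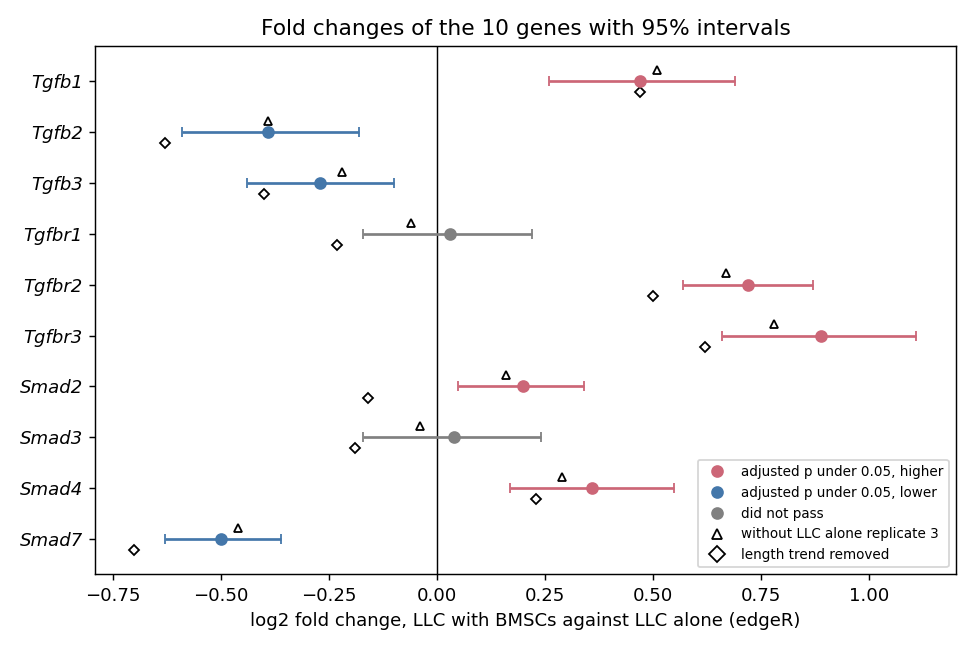
log2 fold changes of the 10 genes, LLC with BMSCs against LLC alone, from edgeR with 95% intervals (circles, red for higher, blue for lower and grey for genes that did not pass), beside the values without LLC alone replicate 3 (triangles) and with the length trend removed (diamonds). Among the circles, Tgfbr3 (0.89) and Tgfbr2 (0.72) lie farthest right and Smad7 (-0.50) farthest left, and the diamonds of Tgfbr1, Smad2 and Smad3 lie left of 0.

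In order of FPKM in LLC alone, Smad4 came first, followed by Tgfbr3, Smad7, Smad3 and Tgfbr1, whose neighbours in the order overlapped in range. Smad2, Tgfb1, Tgfbr2 and Tgfb3 followed, the last pair overlapping, and Tgfb2 came last. In LLC with BMSCs, Tgfbr3 overlapped with Smad4 at the top, and Smad3, Tgfbr1, Tgfb1 and Tgfbr2 formed a group of overlapping neighbours. Smad7 moved from the upper part of the order to a place below Smad2, above Tgfb3 and Tgfb2. The 3 genes whose log2 CPM over the 6 libraries was most like that of Tgfbr3 were Srbd1, Papola and Ddx3x (Pearson's r of 0.999914, 0.999462 and 0.999433). This is a description of libraries that fall into groups, in which 324 genes had an r over 0.99.

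The genes around the core members were followed in 3 lists. The lists share some genes, such as Thbs1 (latency and response genes) and Skil and Pmepa1 (SMAD regulators and response genes), which count in each. Among the genes for latency, activation and surface partners of the ligands, 28 of 30 were in the tables and 23 could be tested. Of these, 18 were higher in LLC with BMSCs, 4 were lower and 1 did not pass. The share that passed was 95.7% against 62.9% of all genes tested, and the share that was higher was 78.3% against 31.5%. The median log2 fold change was 1.02 against 0.01 over all genes tested. Genes such as Dcn, with fewer than 10 counts in each library of LLC alone, could be tested only through their counts with BMSCs. They are part of these shares and of this median. With at least 10 counts required in every library, 15 genes of the list were higher and 4 lower. Over all 12181 genes tested in that setting, 3758 were higher and 3832 lower. Dcn, a proteoglycan that binds TGF-beta, had 8, 8 and 8 counts in LLC alone and 506, 526 and 492 counts in LLC with BMSCs (log2 fold change 5.87, SE 0.14, edgeR adjusted p = 1.02e-07). The protease Mmp9, known to release latent TGF-beta, went from 0.147 to 5.39 FPKM in the mean (log2 fold change 5.12), and the integrin subunit Itgb3 from 0.0633 to 0.937 FPKM (3.88). The protease Mmp2 went from 1.71 ± 0.115 to 8.62 ± 0.188 FPKM (SD, n = 3), a log2 fold change of 2.32. Dcn is also on the list of stromal markers and is part of the sum given above, and neutrophils are known for Mmp9. The part of such cells in these rises was not tested.

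The 4 genes of this list that were lower included the latency protein and the protease with the highest FPKM of this list in LLC alone. Htra1, a serine protease that can cleave TGF-beta family members, had 86.79, 87.72 and 95.38 FPKM in LLC alone and 49.47, 48.89 and 47.76 FPKM in LLC with BMSCs (log2 fold change -0.91). Ltbp1, which ties latent TGF-beta to the matrix, had 28.36, 29.76 and 24.75 FPKM and then 20.13, 19.40 and 19.20 FPKM (-0.52). The groups of both genes were clearly apart. The proprotein convertase Pcsk6 (4.66 to 3.21 FPKM, log2 fold change -0.56) and the integrin subunit Itgb5 (44.4 to 37.0 FPKM, -0.28) were lower too. The co-receptor endoglin, Eng, went from 28.7 ± 1.81 to 34.8 ± 3.18 FPKM (log2 fold change 0.26, edgeR adjusted p = 0.0275, n = 3 each), a call lost under 6 of 17 alternatives, among them the removal of the length trend (0.12, edgeR adjusted p = 0.104). The receptor Acvrl1 (3, 2 and 0 counts in LLC alone, 10, 25 and 10 with BMSCs) and the pseudoreceptor Bambi (0, 0 and 0, then 2, 2 and 0) were too low to be tested.

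Among the regulators of SMADs, all 33 were in the tables and 31 were tested, of which 8 were higher, 8 were lower and 15 did not pass. The median log2 fold change was -0.10. The share that passed, 51.6%, was below the 62.9% of all tested genes. With the length trend removed, 5 were higher and 18 lower. The count of lower genes was 13 without LLC alone replicate 3 and 5 without BMSC replicate 3. The split of this list thus rests on those libraries and on length. Counts over all genes tested moved too. Against 4183 lower in the main fit, 5354 were lower with the length trend removed. Without LLC alone replicate 3 it was 4539, and without BMSC replicate 3 it was 3581. Dab2, an adaptor that links the receptors to SMADs, went from 9.01 ± 0.456 to 16.3 ± 0.61 FPKM (SD, n = 3) with a log2 fold change of 0.84. The BMP-activated SMADs differed, with Smad5 higher (11.7 to 17.6 FPKM, log2 fold change 0.58) and Smad9 lower (2.49, 2.30 and 1.89 FPKM, then 0.57, 0.46 and 0.45 FPKM, -2.20). Smad1 of the same class, outside the naming rule, did not pass (9.39 to 10.1 FPKM, log2 fold change 0.09, edgeR adjusted p = 0.196).

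The inhibitory SMAD of the BMP branch, Smad6, fell along with Smad7, from 2.19 ± 0.114 to 1.33 ± 0.0513 FPKM (log2 fold change -0.74, edgeR adjusted p = 2.43e-04, n = 3 each). Ubiquitin ligases went both ways: Traf6 (7.24 to 10.9 FPKM, log2 fold change 0.58) and Smurf2 (7.37 to 10.2 FPKM, 0.45) were higher, and Stub1 (72.5 to 51.2 FPKM, -0.52) was lower. Ppm1a, a phosphatase of activated SMADs, fell from 180 ± 4.8 to 130 ± 5.14 FPKM (log2 fold change -0.49, n = 3 each). Skil, a SMAD corepressor that TGF-beta signalling itself induces, was higher at 15.1 FPKM against 11.5 (log2 fold change 0.37, edgeR adjusted p = 0.00354), and with the length trend removed the value was 0.08 and did not pass the test. Pmepa1, another induced inhibitor, was too low to be tested, with 0, 0 and 0 counts in LLC alone and 10, 13 and 15 counts with BMSCs.

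Of 40 genes known to respond to TGF-beta, 33 were tested, of which 18 were higher, 9 were lower and 6 did not pass. The share that passed was 81.8% against 62.9% of all genes tested. The median log2 fold change was 0.42 against 0.01. With an edgeR adjusted p under 0.05, 13 of the 33 rose and 6 fell by at least 1 on the log2 scale. Of all genes tested, 15.8% changed by at least that much in either direction. Genes such as Lox and Col1a1, with fewer than 10 counts in each library of LLC alone, could be tested only through their counts with BMSCs. They are part of these counts, of this share and of this median. With at least 10 counts required in every library, 13 genes of the list were higher and 8 lower. Over all 12181 genes tested in that setting, 3758 were higher and 3832 lower. The matrix glycoprotein Thbs1, which can activate latent TGF-beta, went from 1.65 ± 0.358 to 6.56 ± 0.111 FPKM (log2 fold change 1.97, n = 3 each). The collagen cross-linking enzyme Lox had 5, 4 and 2 counts in LLC alone and 676, 705 and 670 with BMSCs, and Col1a1, which is on the stromal marker list, had 2, 4 and 4 and then 586, 499 and 477. The connective tissue growth factor gene Ctgf, outside the naming rule and named after its values were seen, had no count in LLC alone and 36, 35 and 36 with BMSCs, at least 10.9-fold higher against a floor of 3 counts per library.

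The genes of this list that fell most were the Id genes, inhibitors of basic helix-loop-helix factors that BMP signalling induces and TGF-beta can repress in epithelial cells. Id3 had 211.99, 214.07 and 280.65 FPKM in LLC alone and 20.56, 22.87 and 24.57 FPKM in LLC with BMSCs (log2 fold change -3.40). Id1 (98.8 to 11.7 FPKM in the mean, log2 fold change -3.11) and Id2 (123 to 19.1 FPKM, -2.71) fell by similar amounts. Snai2, a transcription factor of epithelial-mesenchymal transition that TGF-beta can induce, also fell, from 59.4 ± 2.24 to 13.3 ± 0.406 FPKM (log2 fold change -2.18, n = 3 each). The list therefore held large changes in both directions. The Id genes, which TGF-beta can repress, fell, and so did Snai2, which it can induce, while Thbs1, Lox and Col1a1 rose.

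**Figure D4:**
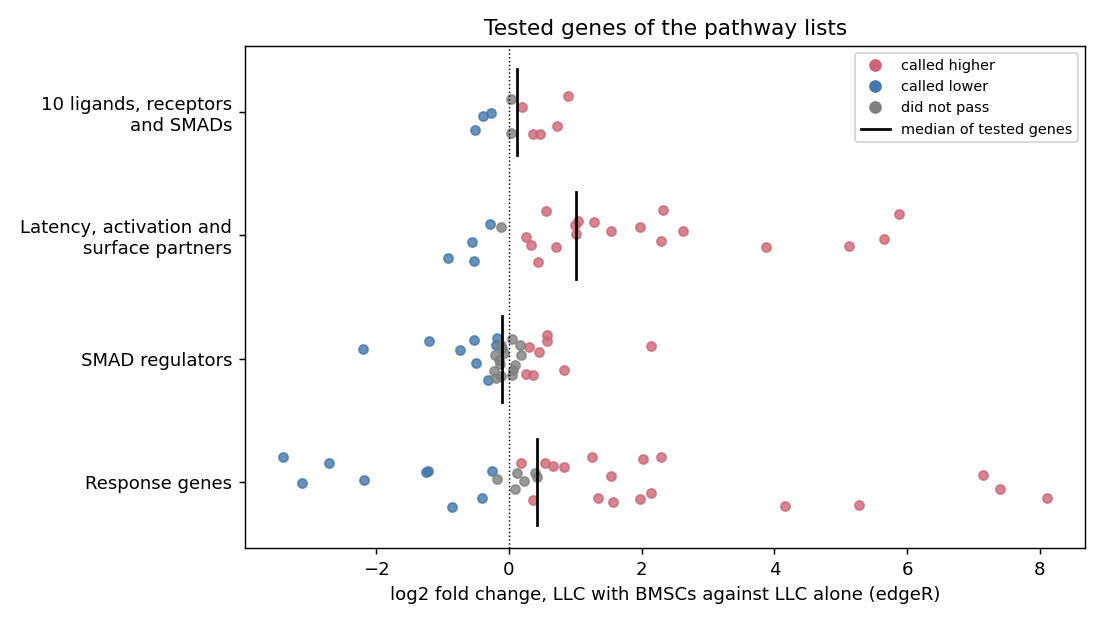
log2 fold changes (LLC with BMSCs against LLC alone, edgeR) of the tested genes among the 10 members and in the lists for latency and activation, SMAD regulators and response genes, as points coloured by whether they passed (red higher, blue lower, grey did not pass), with the median as a black bar. The medians are 0.12, 1.02, -0.10 and 0.42, and the 10 members all lie between -1 and 1.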

How the data were processed

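Transcripts of sorted LLC cells were measured by RNA sequencing, and the 6 libraries were grouped by the sample labels, 3 to a group. According to the study's methods, the sequencer was the BGISEQ-500, with 100 bp read from both ends, whereas the labels name Illumina protocols. The submitters' processing notes name HISAT, StringTie, Cufflinks, GATK and the build mm8. The program that made the counts, its annotation and its strand setting are not given in the sources used here. For genes and transcripts the deposited values were estimated counts, which divide shared reads and were not whole numbers for 21.9% to 23.2% of genes. The authors also deposited gene lengths and FPKM values, which are divided by length and library total. The 10 genes had whole counts in all libraries. Abundant genes and a bias over gene length can shift FPKM. Of 18182 genes, 1151 had no symbol, and 27 symbols stored as dates were restored. The deposited files hold no coordinates, and positions and sequences come from GENCODE M21 and RefSeq on GRCm38.

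Estimated counts were rounded, and edgeR 4.0.16 in R 4.3.3 gave TMM normalization, the default filter on low counts and the quasi-likelihood test over 13353 genes with Benjamini-Hochberg adjustment (threshold 0.05). Normalized counts are CPM scaled to the mean effective library size. SE is the absolute log2 fold change over the square root of the test statistic. Ratios and shares were compared by exact permutation tests. Alternatives were DESeq2 1.42.0, other scalings and filters, limma 3.58.1 on log2(FPKM + 1) and log2(FPKM + 0.1), a replicate block, libraries left out, summed close pairs, stricter thresholds, and removal of each library's trend over gene length by loess offsets. The fits were tested on simulated data. At 33476347 to 46189113 counts in a library, 3 counts lie far below 1 CPM, and the floor covers counting error only. The members and lists were chosen with earlier results of these data known. From each list the 4 largest rises and falls were named among genes with an adjusted p under 0.05 whose normalized counts averaged 100 or more, plus Eng, Acvrl1, Bambi, Pmepa1 and Skil, and for Tgfbr3 the 3 genes most alike in log2 CPM. One gene that the rule names is not reported here. The study's microRNA, protein and animal data were not used here.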

Additional observations from a re-analysis of the deposited data

How the results depend on the processing

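Over 17 alternatives to the edgeR fit, Tgfb1 (log2 fold change 0.39 to 0.52), Tgfbr2 (0.50 to 0.76), Tgfbr3 (0.62 to 0.95), Smad4 (0.23 to 0.43) and Smad7 (-0.70 to -0.42) kept their direction and their call. Of 168 values of the 10 genes, 149 kept direction and call, 9 lost the call and 10 changed direction. With the length trend removed, without and with the replicate block, Tgfbr1 was at -0.23 and -0.23, Smad3 at -0.19 and -0.19, and Smad2 at -0.16 and -0.15. Tgfbr1 and Smad3, which had not passed the test, ranged from -0.06 to 0.07 and from -0.04 to 0.10 with 1 library left out, with values below 0 for both without LLC alone replicate 3 and for Smad3 also without BMSC replicate 1 (-0.01). Tgfbr1 was at -0.0029 under upper-quartile scaling. Summing the libraries nearest each other within a group (LLC alone 1 and 2, LLC with BMSCs 2 and 3) ended the calls of Tgfb2 (edgeR adjusted p = 0.0536), Tgfb3 (0.0891) and Smad2 (0.122). Of 437 values of the 26 list genes chosen by the naming rule, 428 kept direction and call and 9 lost the call, of Eng, Itgb5 and Skil.

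Against 5 members higher and 3 lower, the counts were 4 and 5 with the length trend removed, with or without the block, 0 and 0 where a change of at least 1 on the log2 scale was required, 2 and 1 with an adjusted p under 0.001, and 1 lower with close pairs summed. Leaving out 1 library gave 4 to 5 higher and 2 to 3 lower. The 4 genes of the latency list that were lower became 0 where that size was required. The SMAD regulators, 8 higher and 8 lower, were 5 and 18 with the length trend removed, with or without the block, 1 and 2 at that size, 2 and 4 at an adjusted p under 0.001, 5 lower with close pairs summed, and 5 to 13 lower with 1 library left out, the extremes without BMSC replicate 3 and LLC alone replicate 3. With CPM in place of FPKM the share of Tgfb2 fell by 4.03 percentage points and with FPKM it fell by 2.68 percentage points, since CPM is not divided by length. The cause of the other differences was not tested. Over all genes, the length trend removed gave 3999 higher and 5354 lower against 4210 and 4183, and moved the median from 0.01 to -0.064.

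Same-numbered libraries of the groups did not deviate together (Pearson's r across genes of 0.076, -0.106 and 0.057). No pairing by number was seen, although deviations from the means of 3 libraries cannot exclude one. A replicate block gave 4161 genes higher and 4058 lower, 5 members higher and 3 lower, and changed no call of the 10 genes. Depth limited the test of the lowest genes, such as Acvrl1, Bambi and Pmepa1, and with 3 libraries per group the exact permutation test cannot go below 0.1.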
